A study of Homo sapiens with 8 samples.

Results

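The dual-specificity MAP kinase phosphatases are 10 genes, DUSP1, DUSP2, DUSP4, DUSP5, DUSP6, DUSP7, DUSP8, DUSP9, DUSP10 and DUSP16, of 58302 genes in the tables. They were taken as the rows whose Ensembl identifiers carry those symbols in GENCODE release 29. The cells were SK-Hep1, an established human line from a patient with liver cancer. One set expressed SLC29A2, an equilibrative nucleoside transporter, ectopically, and the other set were mock control cells. Each set received sorafenib and dipyridamole together, sorafenib, dipyridamole, or a control treatment, which gave 8 poly(A)-selected RNA sequencing libraries with 1 library per condition. All cells carried the SK-Hep1 background. The vector and promoter of the SLC29A2 construct, whether its cells were a clone or a pool, and the drug doses and times were not stated in the sources used here. Sorafenib inhibits RAF kinases and several receptor tyrosine kinases, including those for VEGF. Dipyridamole inhibits equilibrative nucleoside transporters and cyclic nucleotide phosphodiesterases.

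MAP kinases are switched on when a kinase above them phosphorylates a threonine and a tyrosine in their activation loop, and the dual-specificity phosphatases remove both phosphates. The family is usually divided by location and preferred kinase. DUSP1, DUSP2, DUSP4 and DUSP5 are nuclear enzymes whose genes are induced by growth factors and stress. DUSP6, DUSP7 and DUSP9 are cytoplasmic and prefer ERK, and DUSP8, DUSP10 and DUSP16 prefer the stress kinases JNK and p38. Several of the genes are themselves switched on by the kinase that their product inactivates, so their messenger RNA is often read beside other output of the pathway.

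Promoters are shown for 4 of the genes that moved with a drug, because DUSP8 and DUSP16 rose, and DUSP1 and DUSP6 fell, with sorafenib. The RefSeq promoters used here, on GRCh38.p14, covered 8 of the 10 genes, in 10 windows. They held none for DUSP4 or for DUSP5, which also fell with sorafenib. The 250 bases before the annotated start were searched on both strands for the cyclic AMP response element (CRE) TGACGTCA, its short form TGACG, the AP-1 site TGANTCA, the ETS site CCGGAAG, the E-box CACGTG and the CArG box of the serum response element. Each sequence runs 5′ to 3′ on the strand of its gene and ends at the base before the RefSeq start. Capitals mark a CRE, a short CRE or an E-box. All 4 genes lie on the minus strand. The windows are chr11:1572272-1572521 for DUSP8, chr12:12562864-12563113 for DUSP16, chr5:172771196-172771445 for DUSP1 and chr12:89352502-89352751 for DUSP6. RefSeq starts can differ from those of the GENCODE genes whose FPKM are given below. The DUSP6 window lies inside the GENCODE gene, chr12:89347232-89353271, so bases before its GENCODE start were not searched. The DUSP8 and DUSP16 windows do not adjoin the GENCODE starts, chr11:1571920 and chr12:12562383.
DUSP8: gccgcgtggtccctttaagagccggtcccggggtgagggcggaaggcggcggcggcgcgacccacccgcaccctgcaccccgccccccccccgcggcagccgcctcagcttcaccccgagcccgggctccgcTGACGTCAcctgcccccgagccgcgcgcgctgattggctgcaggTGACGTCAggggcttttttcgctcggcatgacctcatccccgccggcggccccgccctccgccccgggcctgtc
DUSP16: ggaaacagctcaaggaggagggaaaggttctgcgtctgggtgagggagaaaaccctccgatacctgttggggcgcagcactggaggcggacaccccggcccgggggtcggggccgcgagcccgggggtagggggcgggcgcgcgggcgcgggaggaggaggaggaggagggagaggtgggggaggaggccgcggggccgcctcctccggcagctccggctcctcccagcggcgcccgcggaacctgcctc
DUSP1: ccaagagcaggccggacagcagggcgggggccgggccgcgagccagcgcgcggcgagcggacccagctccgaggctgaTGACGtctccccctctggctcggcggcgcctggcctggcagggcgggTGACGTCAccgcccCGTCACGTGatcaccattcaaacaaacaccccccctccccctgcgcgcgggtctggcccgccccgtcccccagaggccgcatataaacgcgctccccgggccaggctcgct
DUSP6: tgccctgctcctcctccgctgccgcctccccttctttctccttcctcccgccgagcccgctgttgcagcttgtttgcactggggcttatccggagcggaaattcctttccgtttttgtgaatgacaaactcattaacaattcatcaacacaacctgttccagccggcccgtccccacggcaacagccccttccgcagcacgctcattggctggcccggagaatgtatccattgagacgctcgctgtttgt
The DUSP8 window held 2 CREs, which began 118 and 74 bases before the start. The DUSP1 window held 1 CRE at 125 bases, short CREs at 172 and 111 bases outside it, and an E-box at 108 bases that overlaps the nearer short CRE. A full CRE occurred in 1.65% of 35116 promoter windows of the same length, a short CRE in 21.2% and an E-box in 6.34%. None of the 6 motifs was found in the windows of DUSP6, DUSP7, DUSP9, DUSP10 or DUSP16, and DUSP2 held 1 E-box at 113 bases. The AP-1 site, present in 6.57% of all windows, the ETS site, present in 8.52%, and the CArG box, present in 1.16%, were not found in any window of the family. A match is a match of letters and was not tested as a binding site.

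The libraries held 14.07 to 16.69 M reads, as recovered from the deposited values. SLC29A2 itself stood at 1477 to 3040 FPKM, reads scaled to gene length and library size, in SLC29A2 cells and at 7.11 to 7.81 FPKM in mock control cells. Of 8 hepatocyte markers, 7 stayed below 1 FPKM in every library, with APOB, TTR and FGB at 0 throughout, and the summed level of the list was 1.75 to 5.64 FPKM. Among 8 endothelial markers, PECAM1, CDH5, KDR, TEK and CLDN5 were below 1 FPKM, VWF was at 0.172 to 1.66 FPKM, TIE1 at 0.895 to 5.02 FPKM and ESM1 at 8.07 to 55.8 FPKM. The 6 mesenchymal markers summed to 2121 to 3527 FPKM, with COL1A2 the lowest of them at 0.101 to 2.43 FPKM. Leukocyte markers summed to 0.325 to 2.26 FPKM. The epithelial markers EPCAM and CDH1 were below 1 FPKM in every library, and CLDN4 and ESRP1 reached at most 1.24 and 2.06 FPKM. KRT18 was at 134 to 810 FPKM and KRT19 at 30.4 to 81.3 FPKM. Both dipyridamole-treated libraries of mock control cells stood apart from the other 6 in non-coding share. Non-coding genes took 2.68% of reads with both drugs and 2.48% with dipyridamole in mock control cells, against 1.60% to 1.93% in the others. In mitochondrial share these libraries lay at opposite ends, the lowest with both drugs (1.88%) and the highest with dipyridamole (5.74%). Their part in the results was not tested beyond leaving them out.

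**Figure D1:**
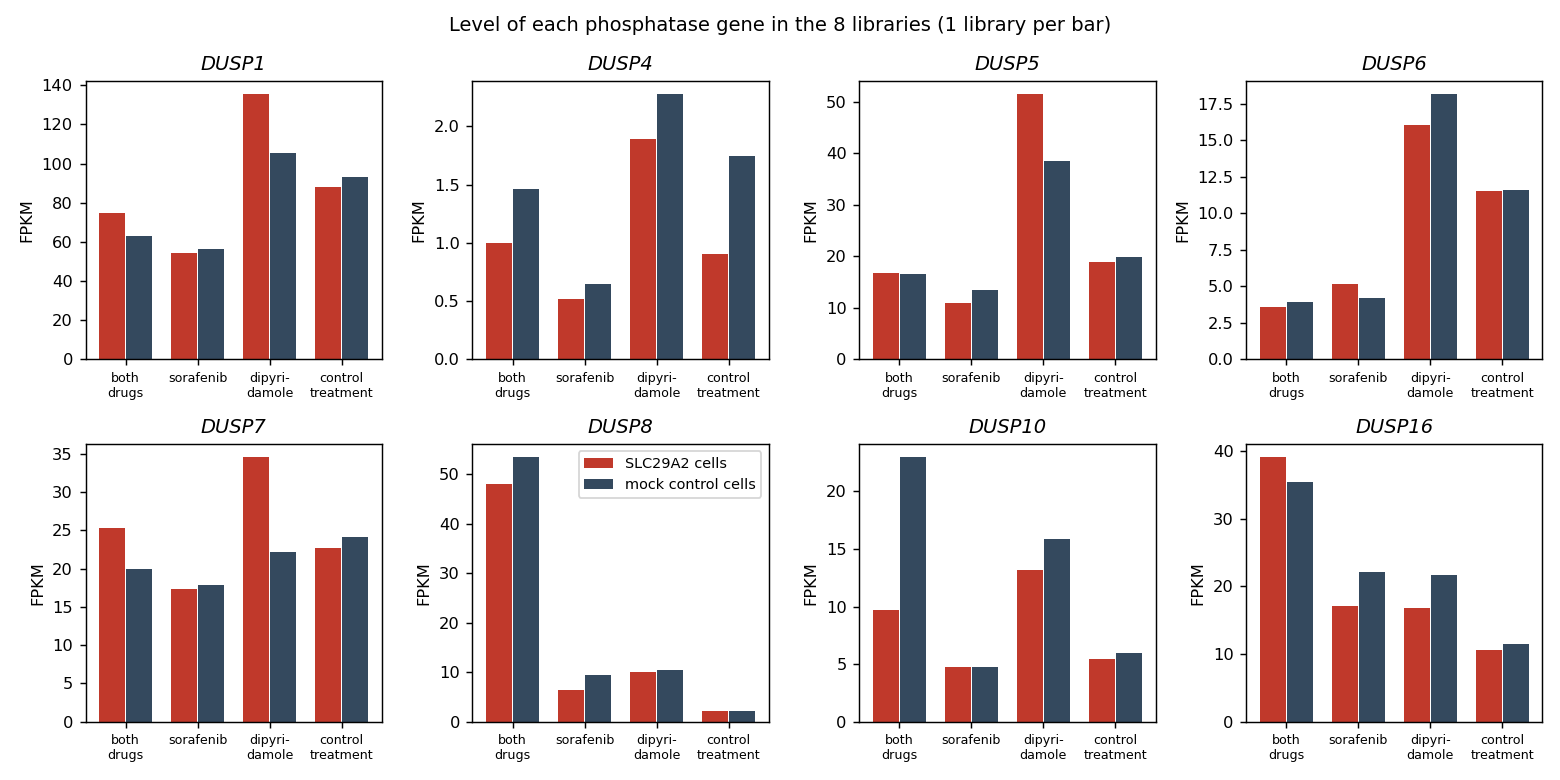
Level of the 8 phosphatase genes whose mean reached 1 FPKM, on a linear FPKM axis from 0, with 1 bar per library for SLC29A2 cells (red) and mock control cells (blue). DUSP8 reached 48.1 and 53.5 FPKM with both drugs against 2.18 FPKM in each control-treated library, and the DUSP6 bars with sorafenib (3.59 to 5.17 FPKM) all lie under those without it (11.5 to 18.2 FPKM).

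Sorafenib split the family. Of the 8 genes that could be tested, DUSP8 and DUSP16 rose and DUSP1, DUSP5 and DUSP6 fell with sorafenib, while DUSP4, DUSP7 and DUSP10 did not pass the threshold. Differences are given on the log2(FPKM + 1) scale from a limma model of cell type, sorafenib and dipyridamole fitted across 13899 genes, with the standard error (SE) of each difference over 4 pairs of libraries, and a gene was called at an adjusted p under 0.05. Of all genes tested, 8.11% were called for sorafenib, 5.94% higher and 2.17% lower. With values rescaled by median-ratio size factors the calls over all genes numbered 478 higher and 470 lower, against 825 higher and 302 lower without rescaling, while the family count stayed at 5. The median difference over the 8 genes was -0.42, and that over all genes was 0.09. No condition had a replicate, so a p-value here reflects the spread among 8 single libraries, which may be technical. In such bulk samples a change in the number of cells expressing a gene and a change in RNA per cell cannot be told apart.

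With dipyridamole DUSP1, DUSP5, DUSP8, DUSP10 and DUSP16 rose, 5 of 8, and none of the 8 passed the test as lower, while 30.0% of all genes were called, 17.5% higher and 12.6% lower. After rescaling by size factors the calls over all genes numbered 2079 higher and 2205 lower, against 2428 higher and 1745 lower without rescaling, and the family count was 4, without DUSP1. The median difference over the 8 genes was 0.63, and that over all genes was 0.07. Cell type moved none of them past the threshold.

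**Figure D2:**
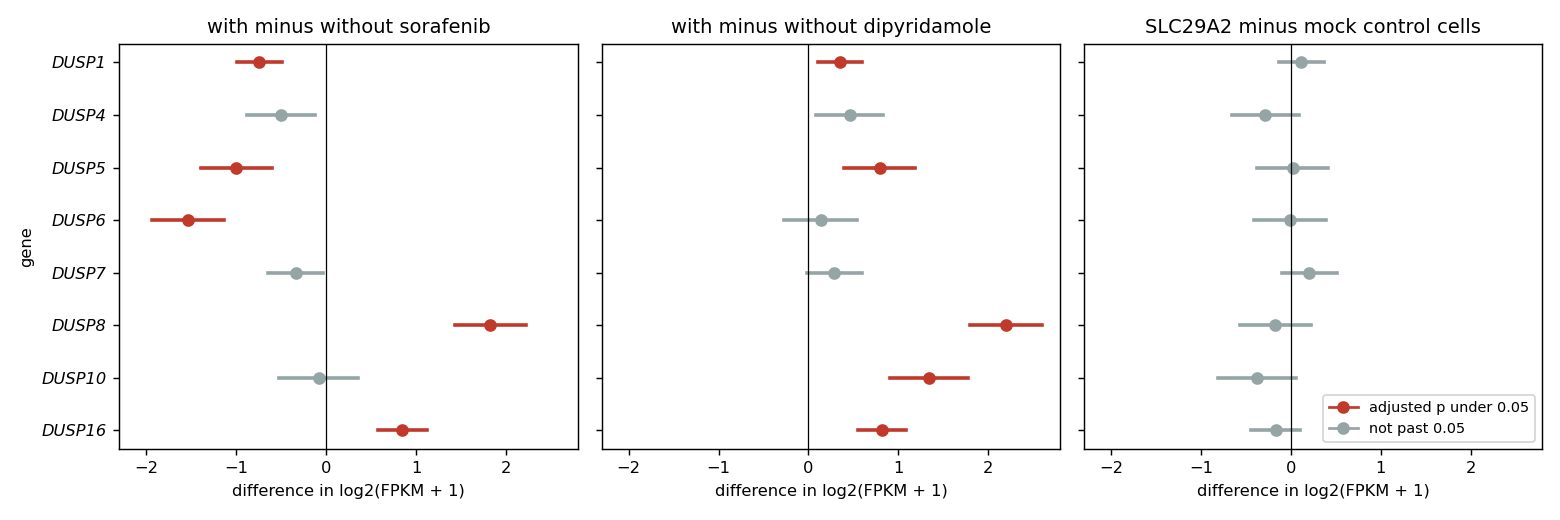
Difference in log2(FPKM + 1) for each tested phosphatase gene with its 95% confidence interval from limma, for sorafenib (left), dipyridamole (middle) and cell type (right), in red where the adjusted p was under 0.05. DUSP8 lies at 1.82 for sorafenib and 2.20 for dipyridamole, DUSP6 at -1.54 and 0.14, and every cell-type difference lies between -0.38 and 0.21.

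Among the nuclear inducible enzymes, DUSP1 (ENSG00000120129, chr5:172768090-172771195, minus strand, GRCh38) was the most abundant gene of the family in every library. DUSP1 is an immediate-early gene whose product acts on JNK, p38 and ERK. In SLC29A2 cells it stood at 74.8 FPKM with both drugs, 54.3 with sorafenib, 135 with dipyridamole and 87.8 with the control treatment, against 63.0, 56.5, 105 and 93.0 FPKM in mock control cells in that order of treatments. The 4 libraries with sorafenib, at 54.3 to 74.8 FPKM, did not overlap the 4 without it, at 87.8 to 135 FPKM. Of all genes, 2.14% were lower with sorafenib without overlap. The fall with sorafenib was -0.74 ± 0.11 (SE, limma adjusted p = 0.00778), and it passed the threshold with each library left out. The rise with dipyridamole was smaller, at 0.35 ± 0.11 (limma adjusted p = 0.0387), and libraries with and without dipyridamole overlapped. That call was lost when any library other than the dipyridamole library of mock control cells was left out, with a highest limma adjusted p of 0.138 without the control-treated SLC29A2 library. It was also lost after rescaling by size factors (adjusted p = 0.13 in limma).

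DUSP5, a nuclear phosphatase that is selective for ERK (ENSG00000138166, chr10:110497838-110511544, plus strand), was highest with dipyridamole alone. It stood at 16.7 FPKM with both drugs, 10.9 with sorafenib, 51.4 with dipyridamole and 18.8 with the control treatment in SLC29A2 cells, against 16.5, 13.4, 38.5 and 19.9 FPKM in mock control cells in that order. The sorafenib libraries, at 10.9 to 16.7 FPKM, lay below the libraries without sorafenib, at 18.8 to 51.4 FPKM, with no overlap. DUSP5 fell by 1.00 ± 0.18 on the log2 scale with sorafenib (limma adjusted p = 0.0145). The call was lost without the library of mock control cells given both drugs (limma adjusted p = 0.0615), without that given dipyridamole (0.0613), without both (0.0835) and with no filter on low values (0.0845). In these 4 settings the difference was -0.91 to -1.01. DUSP5 rose by 0.80 ± 0.18 with dipyridamole (limma adjusted p = 0.00953), a call kept with each library left out. Libraries with and without dipyridamole overlapped, and both-drug libraries lay below control-treated ones. The processed pseudogene DUSP5P1 was at 3.41 to 7.51 FPKM, and how reads of the copies were divided was not stated in the sources used here.

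DUSP4, another nuclear enzyme that acts on ERK and JNK (ENSG00000120875), was low. It stood at 0.999 FPKM with both drugs, 0.520 with sorafenib, 1.89 with dipyridamole and 0.903 with the control treatment in SLC29A2 cells, against 1.46, 0.649, 2.28 and 1.75 FPKM in mock control cells in that order. These values rest on 32 to 136 reads per library, and the libraries overlapped for both drugs. DUSP4 differed by -0.50 ± 0.17 with sorafenib (limma adjusted p = 0.0968) and by 0.46 ± 0.17 with dipyridamole (0.0665), neither past the threshold. On recovered reads with voom, which does not compress low values, the differences were -0.92 ± 0.21 (limma adjusted p = 0.0188) and 0.83 ± 0.21 (0.0113), and both passed. DUSP2, an inducible enzyme best known in lymphocytes (ENSG00000158050), was listed at 0 in 7 libraries and at 0.0521 FPKM, from 1 read, in mock control cells given sorafenib. It was not tested.

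Of the cytoplasmic ERK-selective enzymes, DUSP6 (ENSG00000139318, chr12:89347232-89353271, minus strand) showed the clearest separation by sorafenib. DUSP6 is a feedback inhibitor of ERK whose gene is induced by ERK activity. Its level was 3.59 FPKM with both drugs, 5.17 with sorafenib, 16.1 with dipyridamole and 11.5 with the control treatment in SLC29A2 cells, against 3.92, 4.21, 18.2 and 11.6 FPKM in mock control cells in that order. All 4 sorafenib libraries, at 3.59 to 5.17 FPKM, lay under all 4 without sorafenib, at 11.5 to 18.2 FPKM. The difference was -1.54 ± 0.18 (SE, limma adjusted p = 0.00332), a call kept under each of 15 alternative settings with an adjusted p of at most 0.0396. With both drugs the level was 0.312 times that of the control treatment in SLC29A2 cells (95% exact counting interval 0.247 to 0.391) and 0.338 times in mock control cells (0.268 to 0.424). Counting intervals cover counting error only. For dipyridamole DUSP6 differed by 0.14 ± 0.18 (limma adjusted p = 0.596), with a 95% interval of -0.27 to 0.54. An antisense gene, AC024909.2, shares 40.5% of the exonic bases of DUSP6. It was listed at 0 to 0.063 FPKM, and strand was not stated for the counting.

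DUSP7, the second expressed ERK-selective enzyme (ENSG00000164086), varied least on the log2 scale among the 8 tested genes. It stood at 25.3 FPKM with both drugs, 17.3 with sorafenib, 34.6 with dipyridamole and 22.7 with the control treatment in SLC29A2 cells, against 19.9, 17.8, 22.1 and 24.1 FPKM in mock control cells in that order. The library of SLC29A2 cells given dipyridamole was the highest, and the groups overlapped for both drugs. DUSP7 differed by -0.34 ± 0.14 with sorafenib (limma adjusted p = 0.148) and by 0.29 ± 0.14 with dipyridamole (0.142). Without both dipyridamole-treated libraries of mock control cells the dipyridamole difference was 0.56 ± 0.11 and passed (limma adjusted p = 0.0233). With all pairwise interactions in the model both differences passed (limma adjusted p = 0.0146 for sorafenib and 0.0173 for dipyridamole). DUSP9, which is best known in placenta (ENSG00000130829), had 1 to 10 reads per library, or 0.0402 to 0.379 FPKM, and was not tested.

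Of the JNK and p38 enzymes, DUSP8 (ENSG00000184545, chr11:1554044-1571920, minus strand), a phosphatase of JNK and p38 described mainly in brain and heart, changed most. DUSP8 stood at 48.1 FPKM with both drugs, 6.32 with sorafenib, 10.1 with dipyridamole and 2.18 with the control treatment in SLC29A2 cells, against 53.5, 9.34, 10.4 and 2.18 FPKM in mock control cells in that order. Each drug alone stood above the control treatment, and both drugs stood above either alone, in both cell types. The 4 libraries with dipyridamole, at 10.1 to 53.5 FPKM, did not overlap the 4 without it, at 2.18 to 9.34 FPKM, while libraries with and without sorafenib overlapped. Of all genes, 13.0% were higher with dipyridamole without overlap. The rise was 1.82 ± 0.18 with sorafenib (limma adjusted p = 0.0025) and 2.20 ± 0.18 with dipyridamole (8.32e-05), and both calls were kept under every alternative setting tried.

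In single pairs of libraries, DUSP8 was at least 2-fold higher on the log2(FPKM + 1) scale in all 8 pairs that differed by 1 drug. In SLC29A2 cells, 3.57% of all genes were at least 2-fold higher with both drugs than with dipyridamole, 1.24% with sorafenib than with the control treatment, 5.60% with both drugs than with sorafenib, and 4.13% with dipyridamole than with the control treatment. In mock control cells the same 4 shares were 4.18%, 1.45%, 8.19% and 5.36%. With both drugs against the control treatment, where 10.0% of all genes in SLC29A2 cells and 14.2% in mock control cells were at least 2-fold higher, its FPKM was 22.1-fold higher in SLC29A2 cells (95% exact counting interval 18.2 to 27.0) and 24.6-fold higher in mock control cells (20.4 to 29.8). The product of the 2 single-drug folds was 13.4 in SLC29A2 cells and 20.6 in mock control cells, and the counting interval in mock control cells included that product. The products carry counting error of their own. The sorafenib by dipyridamole term of DUSP8 did not pass the adjusted threshold in limma. For DUSP10 the fold with both drugs was above its product in mock control cells (3.86 against 2.12) and below it in SLC29A2 cells (1.77 against 2.09). The promoter window with 2 CREs shown above is that of DUSP8, and any part of these sites in its level was not tested. DUSP10 and DUSP16 also rose with dipyridamole and held no CRE in their windows. The pseudogene DUSP8P5 stood at 3.26 to 6.18 FPKM, with 3.64 FPKM in SLC29A2 cells and 6.18 FPKM in mock control cells given both drugs. The antisense gene KRTAP5-AS1, which lies across the DUSP8 locus without sharing an exonic base, was at 0 to 6.32 FPKM.

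DUSP16 (ENSG00000111266, chr12:12474210-12562383, minus strand), a phosphatase that favours JNK, was also highest with both drugs. It stood at 39.1 FPKM with both drugs, 17.2 with sorafenib, 16.9 with dipyridamole and 10.7 with the control treatment in SLC29A2 cells, against 35.5, 22.2, 21.7 and 11.5 FPKM in mock control cells in that order. The libraries with both drugs were the highest and the control-treated ones the lowest, and the single-drug libraries were close to each other within a cell type. DUSP16 rose by 0.85 ± 0.12 with sorafenib (limma adjusted p = 0.00678) and by 0.82 ± 0.12 with dipyridamole (0.00147), calls kept under every alternative setting tried. Libraries with and without each drug overlapped.

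DUSP10, which acts on JNK and p38 (ENSG00000143507, chr1:221701424-221742176, minus strand), moved with dipyridamole. It stood at 9.72 FPKM with both drugs, 4.79 with sorafenib, 13.2 with dipyridamole and 5.49 with the control treatment in SLC29A2 cells, against 23.0, 4.74, 15.9 and 5.96 FPKM in mock control cells in that order. The 4 dipyridamole libraries, at 9.72 to 23.0 FPKM, lay above the 4 others, at 4.74 to 5.96 FPKM, with no overlap. The rise was 1.34 ± 0.19 (limma adjusted p = 0.00139), kept under every alternative setting tried. For sorafenib the difference was -0.09 ± 0.19 (limma adjusted p = 0.819), with a 95% interval of -0.52 to 0.35. Between cell types given the same treatment, DUSP10 was the only member with a 2-fold or larger difference on the log2(FPKM + 1) scale, at 9.72 FPKM in SLC29A2 cells against 23.0 FPKM in mock control cells, both given both drugs. In that pair of libraries 3.54% of all genes were at least 2-fold lower in SLC29A2 cells, and DUSP10 was less than 2-fold lower after rescaling by size factors.

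The make-up of the family by FPKM differed with treatment. These shares compare genes per length of their mean annotated transcript, which depends on the transcripts annotated. DUSP8, DUSP10 and DUSP16 together made up 44.3% of the summed FPKM of the 10 genes with both drugs, 24.3% with sorafenib, 14.4% with dipyridamole and 11.4% with the control treatment in SLC29A2 cells. In mock control cells their share was 51.6% with both drugs, 28.1% with sorafenib, 20.5% with dipyridamole and 11.6% with the control treatment. DUSP8 alone made up 22.0% with both drugs against 1.36% with the control treatment in SLC29A2 cells, and 24.7% against 1.28% in mock control cells. The ERK-selective enzymes took 13.3% with both drugs and 21.5% with the control treatment in SLC29A2 cells, and 11.1% and 21.1% in mock control cells. Among the family sums, those with sorafenib alone were the lowest, at 117 FPKM in SLC29A2 cells and 129 FPKM in mock control cells, against 160.4 and 170.3 FPKM with the control treatment. The sums with dipyridamole alone were the highest, at 279.9 FPKM in SLC29A2 cells and 234 FPKM in mock control cells.

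**Figure D3:**
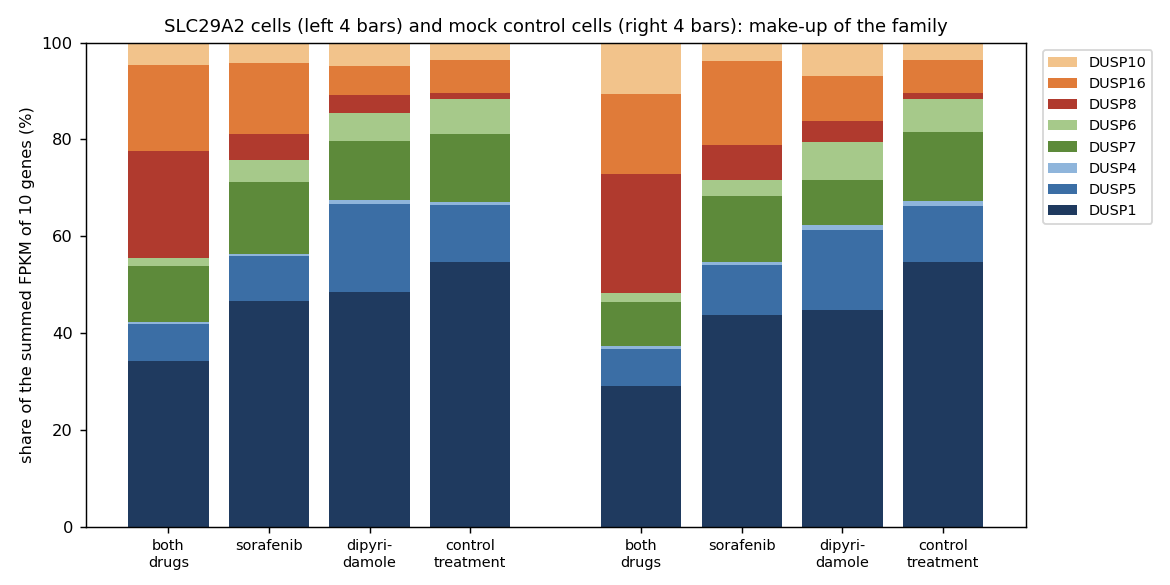
Share (%) of each phosphatase gene in the summed FPKM of the 10 genes, with 1 stacked bar per library for SLC29A2 cells (left 4) and mock control cells (right 4); DUSP2 and DUSP9 are too low to be seen. The orange and dark red blocks of DUSP8, DUSP10 and DUSP16 add to 44.3% and 51.6% with both drugs against 11.4% and 11.6% with the control treatment.

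Whether the drugs changed each other's effect was tested by adding the sorafenib by dipyridamole term. None of the 8 genes passed the adjusted threshold in limma, on FPKM or on recovered reads with voom, and 0.0863% of all genes did. At an unadjusted p under 0.05 there were 3 on FPKM, beside 1839 of all 13899 genes. DUSP5 had a term of -0.73 ± 0.25 (limma adjusted p = 0.306), DUSP6 one of -0.78 ± 0.23 (adjusted p = 0.257) and DUSP8 one of 0.75 ± 0.24 (adjusted p = 0.282). In FPKM, DUSP5 was 2.74-fold higher with dipyridamole than with the control treatment in SLC29A2 cells, and its level with both drugs was 0.889 times that of the control treatment. In mock control cells the folds were 1.94 and 0.830. With all pairwise interactions in the model, which leaves fewer residual degrees of freedom, DUSP5 (limma adjusted p = 0.0382) and DUSP6 (0.0489) passed, as did 855 of 13899 genes.

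SLC29A2 cells were not separated from mock control cells by any member. None of the 8 passed the cell-type test in limma, with 0 at an unadjusted p under 0.05. With voom on recovered reads 0 were called, with 2 at an unadjusted p under 0.05, beside 595 of 13874 genes. Of all genes, 0.00719% were called, which was 1 gene. The differences ran from -0.38 ± 0.19 for DUSP10 to 0.21 ± 0.14 for DUSP7. A 95% interval of -0.57 to 0.22 for DUSP8 and of -0.41 to 0.40 for DUSP6 shows the size of change that the 8 libraries could not separate from 0. The cell type by sorafenib term was called for 0 members and 0 genes, with 0 members at an unadjusted p under 0.05. The cell type by dipyridamole term was also called for 0 members and 0 genes. DUSP1 (0.37 ± 0.15, limma adjusted p = 0.232) and DUSP7 (0.54 ± 0.18, limma adjusted p = 0.177) were under 0.05 unadjusted, as were 2756 of all 13899 genes. With all pairwise interactions in the model that term was called for 1799 of 13899 genes, 537 higher and 1262 lower, and still for 0 members. The median of all genes for that term was -0.14 as deposited and -0.01 after rescaling by size factors.

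The rest of the pathway was described from lists of its kinases, its transcription output and its other phosphatases. Of 21 tested output genes of ERK, 10 fell and 0 rose with sorafenib, where 2.17% of all genes were called lower and 5.94% higher, and the median difference was -0.59 against 0.09 over all genes. The genes with the smallest adjusted p were the immediate-early factor EGR1 (-3.17 ± 0.24), its partner in the early response FOS (-1.75 ± 0.18), the feedback inhibitors SPRY4 (-1.11 ± 0.18) and SPRY2 (-1.03 ± 0.20), the early-response gene IER3 (-1.81 ± 0.32) and the AP-1 subunit FOSL1 (-0.87 ± 0.16), with limma adjusted p from 0.00192 to 0.0207. The count was 4 without the dipyridamole library of SLC29A2 cells, 3 without that of mock control cells, 2 without the both-drug library of mock control cells, and 2 without both of the mock control ones. EGR1 and FOS fell with each library left out. With dipyridamole, for which 17.5% of all genes were called higher and 12.6% lower, 2 of the 21 rose, EGR1 and SPRY2, and 3 fell, ETV1, ETV5 and the cyclin gene CCND1, with a median of 0.08. The 2 rises became 0 without the dipyridamole library of either cell type or the control-treated library of SLC29A2 cells, and 1 without the both-drug or the control-treated library of mock control cells.

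The JNK and p38 list mixes genes induced by these kinases with genes of their substrates, such as MEF2A, MEF2D and MAPKAPK2. The messenger RNA of a substrate need not follow kinase activity. Of 16 tested genes of the list, 7 rose and 0 fell with dipyridamole, against 17.5% of all genes called higher and 12.6% lower. The median was 0.44 against 0.07 over all genes. The rises included the stress factors DDIT3 (1.90 ± 0.15) and ATF3 (1.39 ± 0.26) and the growth-arrest gene GADD45A (1.54 ± 0.14). Also higher were the AP-1 subunit JUND (0.98 ± 0.25) and the p38 substrates MEF2D (0.50 ± 0.10) and MEF2A (0.66 ± 0.16). All of these had a limma adjusted p of at most 0.0165. DDIT3, ATF3, GADD45A and MEF2D kept their calls with each library left out. With sorafenib 4 of the 16 rose and 1 fell, against 5.94% of all genes called higher and 2.17% lower. GADD45B rose by 0.89 ± 0.10 and GADD45A by 0.93 ± 0.14 (limma adjusted p = 0.00293 and 0.00880), ATF3 by 1.06 ± 0.26 and DDIT3 by 0.63 ± 0.15 (0.0412 and 0.0366), and ZFP36, which encodes an mRNA decay factor, fell by 0.94 ± 0.24 (0.0472). Only the calls of GADD45B and GADD45A among these 5 were kept with each library left out, and 2 remained called without the both-drug or without the dipyridamole library of mock control cells. DDIT3, ATF3 and GADD45A are also known targets of other stress pathways.

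**Figure D4:**
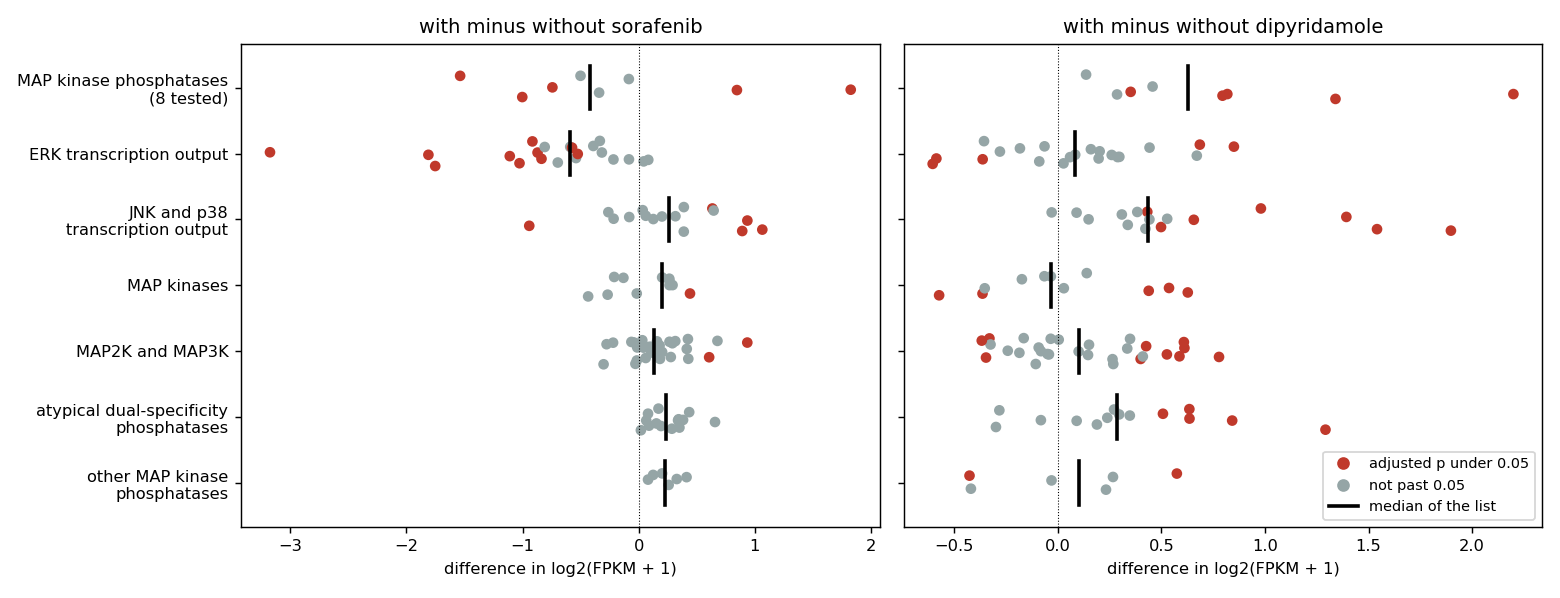
Difference in log2(FPKM + 1) with minus without sorafenib (left) and dipyridamole (right) for each tested gene of the family and of 6 pathway lists, in red where the limma adjusted p was under 0.05, with a bar at the median of each list. The 21 ERK output genes have a median of -0.59 with sorafenib. The 16 genes of the JNK and p38 list, which includes substrates of these kinases, have a median of 0.44 with dipyridamole.

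Of 11 tested MAP kinases, 1 rose with sorafenib, where 5.94% of all genes were called higher. It was p38 alpha (MAPK14), at 0.44 ± 0.10 (limma adjusted p = 0.0313), a call lost with each library left out. With dipyridamole MAPK13, MAPK6 and MAPK3 rose, and MAPK8, which encodes JNK1, and MAPK11 fell, which is 5 of 11 where 30.0% of all genes were called. MAPK13, a p38 kinase, changed by 0.63 ± 0.10 (limma adjusted p = 0.00184), the only call of these 5 kept with each library left out. Of 29 kinases that act above the MAP kinases, 2 rose and 0 fell with sorafenib, against 5.94% and 2.17% of all genes. They were the ERK pathway scaffold KSR1 (0.93 ± 0.15, limma adjusted p = 0.00939) and MAP2K5, the kinase of ERK5 (0.61 ± 0.15, 0.0391). With dipyridamole 7 of the 29 rose and 3 fell, against 17.5% and 12.6% of all genes, led by MAP3K10, an activator of JNK (0.78 ± 0.11, limma adjusted p = 0.00123), and TAOK3 (0.61 ± 0.09, 0.0019). With a library left out, 4 to 6 rises and 0 to 2 falls were called. The count was 4 rises and 0 falls without the dipyridamole or the control-treated library of SLC29A2 cells, or without the both-drug or the sorafenib library of mock control cells. KSR1, MAP3K10 and TAOK3 kept their calls with each library left out, and the sorafenib call of MAP2K5 was lost without any library other than the sorafenib library of SLC29A2 cells and the control-treated library of mock control cells.

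Among the other phosphatases, 14 genes of a list headed atypical dual-specificity phosphatases were tested. The atypical enzymes lack the kinase-binding domain of the family described here. The list also holds SSH1, SSH2 and SSH3, of the separate slingshot group, and STYX and STYXL1, which encode inactive relatives. Of the 14 genes, 5 rose with dipyridamole and 0 fell, against 17.5% and 12.6% of all genes. These were DUSP22 (0.84 ± 0.12), DUSP15 (1.29 ± 0.19), DUSP3 (0.64 ± 0.14), DUSP18 (0.64 ± 0.14) and DUSP11 (0.51 ± 0.11), with limma adjusted p from 0.00118 to 0.0105, and all 5 calls were kept with each library left out. With sorafenib 0 of the 14 were called by limma on FPKM, with 4 at an unadjusted p under 0.05, as were 3702 of all 13899 genes. On recovered reads voom called 2 of the 14, against 1635 of 13874 genes in all. Of 6 further phosphatases that act on MAP kinases, the tyrosine phosphatase gene PTPRR rose (0.57 ± 0.17) and PPP2CA, a catalytic subunit of PP2A, fell (-0.43 ± 0.10) with dipyridamole, with limma adjusted p of 0.0351 and 0.0106. The PTPRR call was lost without most single libraries, with a highest limma adjusted p of 0.122. With sorafenib 0 of the 6 were called by limma, with 3 at an unadjusted p under 0.05 and 0 by voom.

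The protein-coding genes whose log2(FPKM + 1) values ran most nearly in parallel with each member over the 8 libraries were picked from 3913 genes with a range of at least 1. All these correlations share the same libraries, and 1 or 2 conditions can carry them. For DUSP8 they were TMLHE (Pearson r = 0.997), BCAS4 (0.997) and ZNF517 (0.995). For DUSP16 they were LRSAM1 (0.992), NLRX1 (0.987) and ATXN1 (0.987), and for DUSP10 TBXAS1 (0.988), UFM1 (0.983) and RAPGEFL1 (0.979). The genes nearest to DUSP6 were SERPINB2 (0.981), SLC20A1 (0.977) and ESM1 (0.965), and those nearest to DUSP5 were MAFF (0.986), TMEM88 (0.971) and ELFN1 (0.965). DUSP1 ran closest to CT62 (0.951), FOSL1 (0.948) and EGR1 (0.943), and DUSP4 to CDK17 (0.908), GLRX (0.895) and FAM89A (0.887). DUSP7 varied by less than a log2 range of 1 and was not included.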

How the data were processed

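Poly(A)-selected RNA of 8 SK-Hep1 conditions was sequenced, with 1 library each. The deposited values are FPKM per gene. Tools listed without a role in the submitters' processing notes were edgeR, HTSeq 0.6.1 and TopHat2 2.0, with the build GRCh38.p12. Each table has 58310 lines, and 8 of these hold no gene identifier and were left out. The FPKM divided by what 1 read is worth, from the mean GENCODE release 29 transcript length and the library total, gave whole reads for 93.5% to 93.7% of values (tolerance 0.01) and for every value of the 10 members.

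Genes whose mean reached 1 FPKM were kept, and log2(FPKM + 1) was fitted with limma 3.58.1 in R 4.3.3 (mean-variance trend, two-sided, Benjamini-Hochberg over 13899 genes). The terms were cell type and the presence of each drug, with interactions added 1 at a time. With 1 library per condition the error term holds both library spread and any interaction. The pseudocount of 1 understates changes of low genes. The scripts were tested on simulated data. Alternatives were a pseudocount of 0.1, no filter, a filter of 5 FPKM, median-ratio size factors, voom on recovered reads, all pairwise interactions, and leaving out libraries.

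The members and lists were chosen with earlier results of these data known. All 10 members are named, with up to 6 called genes per list and drug by smallest adjusted p, and the 3 genes with the highest Pearson r to a member.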

Additional observations from a re-analysis of the deposited data

Results flagged for a closer look

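For 4 of the 8 tested members, a difference had opposite signs with and without a drug. The sign was the same in both library pairs on each side. Each of the 3 factors was looked at with and without each of the others in every tested member. Random signs alone would give some such patterns over so many looks. How many of all genes show such a pattern was not counted. The differences are in log2(FPKM + 1), and none of the interaction tests in limma passed the adjusted threshold. The DUSP6 difference for dipyridamole was -0.43 in SLC29A2 cells and -0.08 in mock control cells when sorafenib was present, against 0.45 and 0.61 without sorafenib. In mock control cells with sorafenib the 95% exact counting interval of the FPKM ratio, 0.705 to 1.23, included 1, and the other intervals for DUSP6 here did not. The interaction was -0.78 (limma adjusted p = 0.257).

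The difference between SLC29A2 and mock control cells changed sign with dipyridamole for DUSP1, DUSP5 and DUSP7. For DUSP1 it was 0.24 with both drugs and 0.36 with dipyridamole, against -0.06 with sorafenib and -0.08 with the control treatment, an interaction of 0.37 (limma adjusted p = 0.232). For DUSP5 these values were 0.02 and 0.41, against -0.27 and -0.08, an interaction of 0.39 (limma adjusted p = 0.55). For DUSP7 they were 0.33 and 0.62, against -0.04 and -0.09, an interaction of 0.54 (limma adjusted p = 0.177). Several of these differences lay within counting error, as the 95% exact counting interval of the FPKM ratio included 1. This held for DUSP1 with sorafenib (0.897 to 1.03) and for DUSP5 with both drugs (0.885 to 1.16) and the control treatment (0.836 to 1.07). It also held for DUSP7 with sorafenib (0.883 to 1.07) and the control treatment (0.866 to 1.02). The other intervals for these genes did not include 1. The mock control libraries in these comparisons include both that stood apart in non-coding share, at 2.68% and 2.48% of reads. Their part in the sign change was not tested.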

How the results depend on the processing

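The called members numbered 4 to 6 for sorafenib, 4 to 6 for dipyridamole and 0 for cell type over 15 alternatives. In single library pairs that differed by 1 factor, 4 for each of 3 factors, 21 differences of the 8 tested members were at least 2-fold. DUSP8 was among them in all 8 pairs that differed by 1 drug. The 21 became 24 with a pseudocount of 0.1 and 20 with size factors. By pair, the share of all genes at least 2-fold apart was 1.06% to 11.0%. It was 3.02% to 16.2% with that pseudocount and 1.09% to 10.8% with size factors. Of 119 member results per factor, 110 for sorafenib and 106 for dipyridamole kept their direction and side of the threshold. The sorafenib by dipyridamole term was called for 2 members with all pairwise interactions in the model, against 0. That model has fewer residual degrees of freedom and called 4839 genes for sorafenib and 7411 for dipyridamole, against 1127 and 4173 in the additive model, and the fewest called over the alternatives were 136 and 2622.

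Signs changed only for differences that were not called. Without both dipyridamole-treated libraries of mock control cells, the cell-type difference was -0.07 for DUSP1, -0.17 for DUSP5, 0.12 for DUSP6 and -0.06 for DUSP7, and with size factors it was 0.06 for DUSP6. With single libraries left out, the ranges that crossed 0 were -0.32 to 0.08 for DUSP10 and sorafenib, -0.00 to 0.30 for DUSP6 and dipyridamole, and, for cell type, -0.17 to 0.18 for DUSP5, -0.17 to 0.13 for DUSP6 and -0.31 to 0.00 for DUSP8. The cause was not tested. No paired analysis was possible because the labels give no replicate numbers to block on, beyond the matching of libraries by cell type and drug that the additive model already uses. At 14.07 to 16.69 M reads, 1 read in a gene of 2000 bases is worth 0.03 to 0.0355 FPKM, so DUSP2 and DUSP9 are too low to compare.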
